A study of Rattus norvegicus with 304 samples.

Results

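Scn4b encodes the beta-4 subunit of voltage-gated sodium channels. It is 1 of the 49 targets for which the OpenArray, a plate of nanolitre real-time PCR wells, has a deposited fold change, and it is not among the targets of the second platform of the study. The gene was chosen by its deposited fold changes, which stood high after exposure to TCDD (a dioxin). Its values against corn oil are therefore described here with no test, and they support nothing by themselves. A value was listed for 34 of the 36 groups of rats. The missing groups are 0.01 µg/kg TCDD at 19 h and corn oil at 384 h, both in Han/Wistar rats. Scn4b and Ahrr, with 3 missing groups, were the 2 targets with gaps, and the remaining 47 were listed in every group.

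The samples were livers of male rats aged 10 to 12 weeks, given TCDD or the corn oil vehicle once by oral gavage. By their labels, Long-Evans is the TCDD-sensitive strain and Han/Wistar the resistant one. On the OpenArray 68 Long-Evans and 82 Han/Wistar samples were run, with 3 to 7 in a group. The dose arm was collected at 19 h, with 8 TCDD doses from 0.001 to 1000 µg/kg in Long-Evans and 8 from 0.001 to 3000 µg/kg in Han/Wistar. The time arm followed 100 µg/kg at 3, 6, 10, 19, 96 and 240 h in both strains and also at 1.5 and 384 h in Han/Wistar. Corn oil groups were collected at 19, 96 and 240 h in both strains and also at 1.5 and 384 h in Han/Wistar. The authors deposited 1 value per target and group, a fold change whose zero is that strain's 19 h corn oil group, taken here as log2 although no header states its base. The spread between the animals of a group is unknown. The spread of Scn4b among corn oil groups of different times is the yardstick used here, and it does not measure the spread between animals. The panel held none of the 21 markers listed for hepatocytes and other liver, nerve or muscle cells, so the tissue was not checked against markers. In whole liver, a change in the number of cells of a type and a change in RNA per cell cannot be told apart.

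Beta subunits are membrane proteins with an extracellular immunoglobulin-like domain. They modify the gating and the surface expression of the pore-forming alpha subunits and also act in cell adhesion. The beta-4 subunit is best known from neurons and heart, where it contributes to the resurgent sodium current of some neurons. TCDD activates the aryl hydrocarbon receptor (AHR), which with its partner ARNT binds DNA with the core letters GCGTG and switches on genes of foreign-compound metabolism. Of 14 voltage-gated sodium channel genes looked for, Scn4b was the 1 on the panel. In the RefSeq annotation of the rat genome GRCr8 its neighbours on chromosome 8 are Scn2b, which encodes the beta-2 subunit, and Tmprss4, and neither was measured.

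The promoter windows of Scn4b and of Cyp1b1, the target whose pattern came out closest to it, are shown because AHR is the receptor that TCDD binds. Each window runs from 250 bases before to 50 bases after the start of the gene in RefSeq (GRCr8). Capitals mark the AHR core GCGTG on either strand, read as CACGC on the other strand.
Scn4b, chr8:54343623-54343922, plus strand: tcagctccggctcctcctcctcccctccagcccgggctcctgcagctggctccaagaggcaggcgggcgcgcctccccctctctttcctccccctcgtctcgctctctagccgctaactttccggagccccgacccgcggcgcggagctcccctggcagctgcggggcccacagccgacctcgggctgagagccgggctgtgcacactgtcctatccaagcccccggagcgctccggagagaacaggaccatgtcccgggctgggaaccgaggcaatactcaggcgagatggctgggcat
Cyp1b1, chr6:21094315-21094614, plus strand: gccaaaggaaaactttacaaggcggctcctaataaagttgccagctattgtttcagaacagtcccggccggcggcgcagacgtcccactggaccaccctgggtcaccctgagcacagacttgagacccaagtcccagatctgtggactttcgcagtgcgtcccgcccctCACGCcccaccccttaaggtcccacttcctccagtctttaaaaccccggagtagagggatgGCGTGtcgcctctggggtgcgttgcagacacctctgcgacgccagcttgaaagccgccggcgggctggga
The window of Scn4b held no match to the core on either strand, and that of Cyp1b1 held 2, with first bases at -81 and -20 from the start. The window of Ahrr, the AHR repressor gene, held 3. Among the other targets named below, Nudt4 also held 3, and Exoc3 and Perp held 1 each. Cyp2a1, Inmt and Nfe2l2 held 0, as Scn4b did. Of the 33469 rat promoter windows 29.7% held at least 1 match. The GC box GGGCGG (33.1% of all windows) and the TATA box TATAAA (14.2%), both searched on both strands, also had no match for Scn4b. The AHR core and the GC box can share an end letter, and each was counted separately. GC content was 70.0% for Scn4b and 60.7% for Cyp1b1, against a median of 51.7% over all windows. A window with no match says only that these letters are not in it. Of Scn4b and the 10 other targets chosen by the naming rule, 11 in all, 9 had a window. Cyp1a1 and Aldh3a1 had none.

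The dose arm asks from which dose Scn4b differed from corn oil at 19 h. For Long-Evans the authors' deposited table gave -1.04, -1.54 and -1.16 log2 units at 0.001, 0.01 and 0.1 µg/kg. For the higher doses the authors' deposited table gave 1.88 with 1 µg/kg, 5.28 with 10, 6.18 with 50, 7.14 with 100 and 6.35 with 1000 µg/kg. The values thus lay below the corn oil group at 19 h at the 3 lowest doses and changed sign between 0.1 and 1 µg/kg. Cyp1b1 and Aldh3a1 lay further below that group at the same 3 doses, with values given further on.

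For Han/Wistar the authors' deposited table gave 1.91 with 0.001 µg/kg, 0.41 with 0.1 and 0.80 with 1 µg/kg, and no value with 0.01 µg/kg. The authors' deposited table then gave 3.38 with 10 µg/kg, 5.03 with 100, 4.85 with 1000 and 4.68 with 3000 µg/kg. The 0.001 µg/kg group was thus higher than the groups at 0.1 and 1 µg/kg, and the 3 doses from 100 µg/kg upward differed by less than the spread of the corn oil groups given next. Read as log2, 100 µg/kg at 19 h corresponds to 141-fold in Long-Evans and 32.7-fold in Han/Wistar. Both folds rest on the level of Scn4b in corn oil at 19 h. How near that level lay to the detection limit was not checked, because the cycle values were not used.

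The corn oil groups give the background for these values. The authors' deposited table put Scn4b at 2.06 after 96 h and -0.52 after 240 h of corn oil for Long-Evans. It put Scn4b at 0.40 after 1.5 h, 1.82 after 96 h and 2.42 after 240 h for Han/Wistar, again in the authors' deposited table. With corn oil at 19 h at 0 by construction, the SD over corn oil groups was 1.37 in Long-Evans (n = 3 groups) and 1.15 in Han/Wistar (n = 4 groups), against a median over all targets of 0.14 and 0.21. By this SD Scn4b was 3 of 49 targets in Long-Evans and 5 of 49 in Han/Wistar, so differences of about 1 log2 unit between its groups are within the spread of its controls.

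From 10 µg/kg upward Scn4b lay above every corn oil group in both strains, and at 1 µg/kg it did not. This held from 10 µg/kg or a lower dose for 29 of 49 targets in Long-Evans (59.2%) and 24 in Han/Wistar (49%), so being above all corn oil groups was common on the panel. The lowest such dose was 10 µg/kg for 3 targets in Long-Evans, where Bbs2 and Cmkor1 shared it, and for 6 in Han/Wistar. For Cyp1a1, the P450 enzyme that is the classical AHR target, it was 0.1 µg/kg in both strains. Each target was held against its own highest corn oil group, so the limit was not the same for all. It was 2.06 in Long-Evans and 2.42 in Han/Wistar for Scn4b, and 2.16 and 3.47 for Cyp1a1. For Bbs2 and some other targets it was 0, the corn oil group at 19 h. With a 2-fold difference from corn oil at 19 h as the limit in place of the highest corn oil group, the lowest dose for Scn4b was 1 µg/kg in Long-Evans and 10 µg/kg in Han/Wistar.

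Between 1 and 10 µg/kg Scn4b differed by 3.41 log2 units for Long-Evans and 2.58 for Han/Wistar, the step with rank 3 of 49 targets in each strain, against a median step of 0.19 and 0.16. Between 0.1 and 1 µg/kg the step was 3.04 in Long-Evans and 0.39 in Han/Wistar. Cyp1a1 differed by 0.41 in Long-Evans and -0.08 in Han/Wistar between 1 and 10 µg/kg. These steps compare TCDD groups with each other and do not depend on the corn oil group at 19 h.

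**Figure D1:**
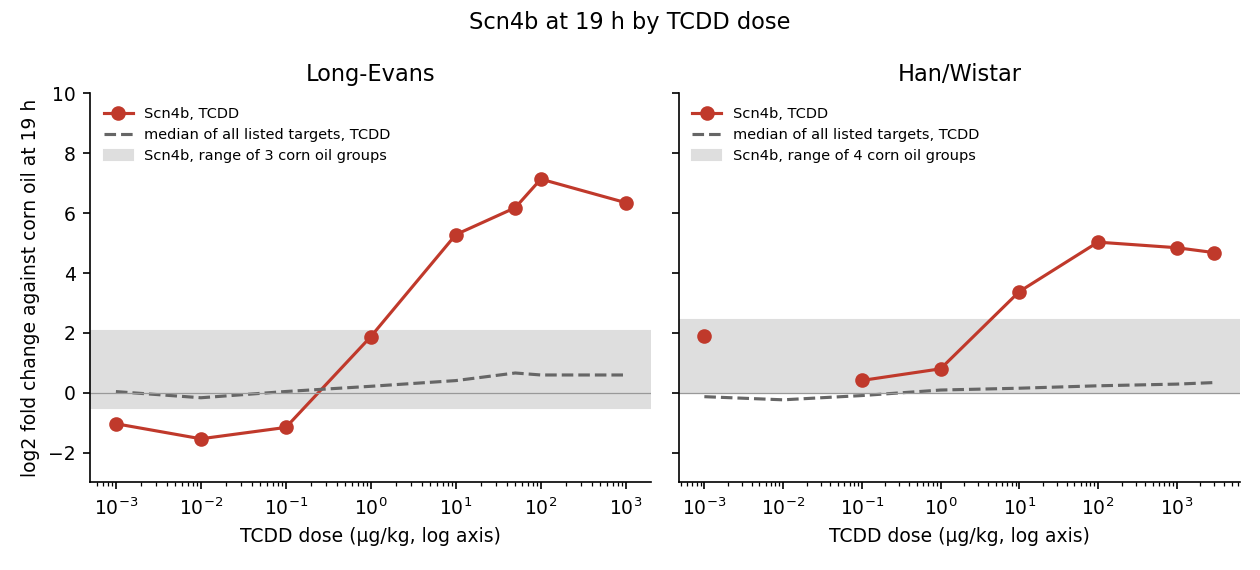
Scn4b at 19 h in Long-Evans (left) and Han/Wistar (right). The x axis is the TCDD dose in µg/kg on a log scale and the y axis the deposited log2 fold change against corn oil at 19 h, with 1 point per group, the dashed line for the median over all listed targets and the grey band for the range of Scn4b in the corn oil groups (3 in Long-Evans, 4 in Han/Wistar). From 10 µg/kg upward the points lie above the band in both strains, and the line is broken at 0.01 µg/kg in Han/Wistar, where no value is listed.

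At 100 µg/kg and 19 h Scn4b was past 2-fold in both strains, as were 36.7% of targets in Long-Evans (18 of 49) and 30.6% in Han/Wistar (15 of 49), a contrast that was used to choose the gene. Its rank was 5 of 49 in Long-Evans and 4 of 49 in Han/Wistar. The targets above it were Cyp1a1, Aldh3a1 (an inducible aldehyde dehydrogenase), Cyp1b1 (a dioxin-inducible P450 enzyme) and, in Long-Evans, Ahrr. In Long-Evans these stood at 9.47, 9.64, 9.60 and 7.86 in the authors' deposited table. In Han/Wistar Cyp1a1 stood at 9.99, Aldh3a1 at 10.54 and Cyp1b1 at 10.62 in the authors' deposited table, while Ahrr at 4.95 was just under Scn4b.

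The time arm asks how the difference develops after 100 µg/kg. For Long-Evans the authors' deposited table gave Scn4b as 2.26 after 3 h, 3.89 after 6 h, 4.41 after 10 h, 7.14 after 19 h, 10.43 after 96 h and 10.93 after 240 h. All 6 values lay above the corn oil groups, the highest of which was at 2.06 in the authors' deposited table. The group at 3 h exceeded that corn oil group by less than the SD over corn oil groups.

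For Han/Wistar the authors' deposited table gave -2.81 after 1.5 h, 2.12 after 3 h, 3.48 after 6 h and 3.28 after 10 h. At the later times the authors' deposited table gave 5.03 after 19 h, 9.62 after 96 h, 10.64 after 240 h and 11.15 after 384 h. Of these 8 values, the 6 from 6 h onward lay above every corn oil group. At 240 h, 51% of targets in Long-Evans and 32.7% in Han/Wistar were at least 2-fold above corn oil at 19 h, and Scn4b ranked 3 of 49 in each strain. At 384 h in Han/Wistar it ranked 2 of 49, after Cyp1b1 at 13.74 in the authors' deposited table.

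The 1.5 h group of Han/Wistar stood apart. Scn4b had the lowest value of the 49 targets there and was the 1 target at least 2-fold below corn oil at 19 h, while Cyp1a1 was the highest at 5.63 in the authors' deposited table. Cyp1a1 was also the highest target in corn oil of that time, at 3.47 in the authors' deposited table. The group held 3 rats, and so did the corn oil group of that time, with TCDD minus corn oil at -3.21. No Long-Evans group was collected at 1.5 h.

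The difference between TCDD and corn oil of the same time was 8.37 log2 units at 96 h and 11.45 at 240 h in Long-Evans. For Han/Wistar it was 7.80 and 8.23 at those times. Averaged over times, TCDD minus corn oil was 6.00 in Long-Evans (6 TCDD and 3 corn oil groups) and 4.15 in Han/Wistar (8 and 4). These averages took all listed times of each arm without matching them, so the times differ between arms and between strains. The value for Han/Wistar was 5.31 without TCDD at 1.5 h and 3.32 without TCDD at 384 h. Corn oil was not listed for 3, 6 and 10 h.

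**Figure D2:**
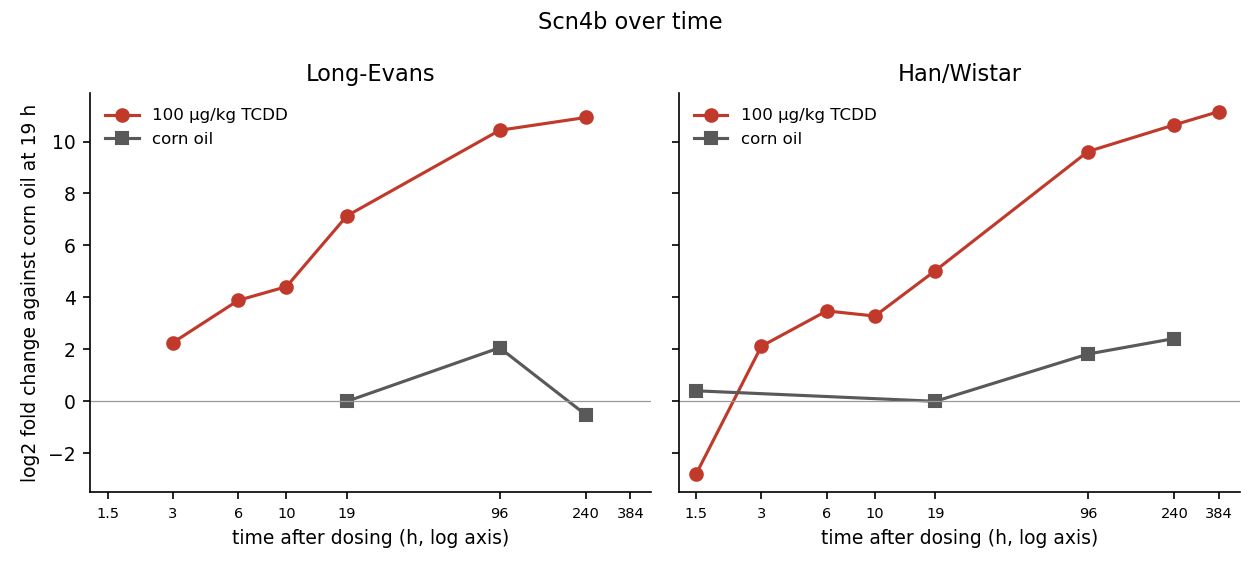
Scn4b over time in Long-Evans (left) and Han/Wistar (right). The x axis is the time after dosing in h on a log scale and the y axis the deposited log2 fold change against corn oil at 19 h, with 1 point per group, circles for 100 µg/kg TCDD and squares for corn oil. The TCDD points lie at 9.62 or higher from 96 h onward, and the corn oil points lie between -0.52 and 2.42.

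Scn4b differed more between 19 and 96 h than most of the panel. The step was 3.29 log2 units in Long-Evans and 4.59 in Han/Wistar, rank 3 and 2 of 49 targets, against a median of 0.45 and 0.26. By 240 h the step from 19 h was 3.79 in Long-Evans and 5.61 in Han/Wistar. Over the same span Cyp1a1 differed by -0.18 in Long-Evans and -0.15 in Han/Wistar, and Ahrr by 3.83 and 5.62. Cmkor1, an older symbol of a scavenger receptor for chemokines, had the largest step in Long-Evans, 5.05, and differed by 3.20 in Han/Wistar.

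Corn oil of the same time also differed between 19 and 240 h, by -0.52 in Long-Evans and 2.42 in Han/Wistar. With that difference taken off, the step of Scn4b from 19 to 240 h was 4.31 in Long-Evans and 3.19 in Han/Wistar, rank 3 and 2 of 49. For Cyp1b1 the step taken in this way was 3.62 in Long-Evans and -2.23 in Han/Wistar. From 19 to 96 h it was 1.23 for Scn4b in Long-Evans, rank 8 of 49 and within the SD over corn oil groups, and 2.76 in Han/Wistar, rank 2 of 49.

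**Figure D3:**
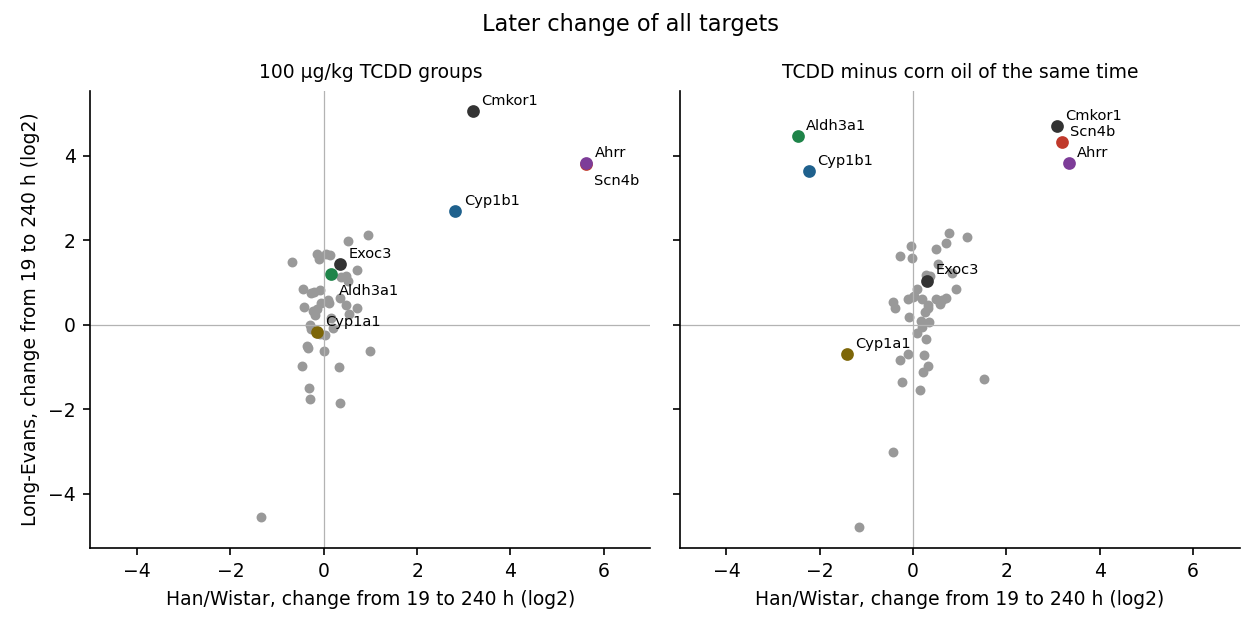
Change from 19 to 240 h of each target in log2 units, with Han/Wistar on the x axis and Long-Evans on the y axis. Each point is 1 target, in the left panel for the 100 µg/kg TCDD groups and in the right panel for TCDD minus corn oil of the same time. Scn4b and Ahrr nearly coincide in the left panel, and Scn4b, Ahrr and Cmkor1 lie above 3 on both axes in both panels.

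Other targets moved with Scn4b in some of the corn oil groups. In Long-Evans corn oil at 96 h 5 targets were at least 2-fold above corn oil at 19 h, namely Scn4b, Cyp1b1, Cyp1a1, Aldh3a1 and Ahrr. In Han/Wistar the 5 were Scn4b, Cyp1b1, Ahrr, Aldh3a1 and Inmt, an indolethylamine methyltransferase, at 96 h and Scn4b, Cyp1b1, Aldh3a1, Ahrr and Cyp1a1 at 240 h. The authors' deposited table put Cyp1b1 at 2.79 after 96 h of corn oil for Long-Evans. For Han/Wistar corn oil the authors' deposited table put it at 4.38 after 96 h and 5.05 after 240 h. In Long-Evans corn oil at 240 h and Han/Wistar corn oil at 1.5 h Scn4b was at -0.52 and 0.40 in the authors' deposited table. There Aldh3a1 was at -3.26 and -3.33, and Cyp1a1 at 0.51 and 3.47, again in the authors' deposited table. The Han/Wistar group at 0.001 µg/kg, where Scn4b was at 1.91 in the authors' deposited table, had Cyp1b1 at 2.93 as well. Scn4b was below 0 in Long-Evans at 0.001, 0.01 and 0.1 µg/kg. There the authors' deposited table put Cyp1b1 at -3.11, -3.72 and -2.17, and Aldh3a1 at -6.10, -5.55 and -2.46. Cyp1a1 was at -1.61, 1.32 and 6.45 in the same groups. The part of these shared shifts in the values of Scn4b was not tested.

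Ordered by level, the groups of each strain fell into few steps larger than the SD over corn oil groups. In Long-Evans 3 of 15 gaps between neighbours exceeded it. They lay between 96 h and 19 h at 100 µg/kg (3.29), between 6 and 3 h at 100 µg/kg (1.63), and between 1 µg/kg at 19 h and corn oil at 19 h (1.88). In Han/Wistar 3 of 17 did, between 96 h and 19 h at 100 µg/kg (4.59), between 3000 µg/kg at 19 h and 100 µg/kg at 6 h (1.20), and between corn oil at 19 h and 100 µg/kg at 1.5 h (2.81). Neighbours in the order that are not named here did not differ beyond this spread.

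The strains were compared group by group as Long-Evans minus Han/Wistar, at the same dose and time, a contrast other than that of TCDD with corn oil. With 100 µg/kg the difference was 0.14 after 3 h, 0.41 after 6 h, 1.13 after 10 h, 2.11 after 19 h, 0.82 after 96 h and 0.28 after 240 h. As deposited, Scn4b was higher in Long-Evans in 6 of 6 matched groups at this dose, but the difference at 240 h was -0.12 with each group centred on its mean over targets and -0.28 centred on its median. The difference was largest at 19 h, where its difference ranked 3 of 49 targets against a median of 0.10. For the 3, 96 and 240 h groups Scn4b ranked 20, 15 and 28 of 49, against panel medians of 0.07, 0.31 and 0.55. For the 6 and 10 h groups the ranks were 6 and 2, against medians of -0.09 and 0.004. A higher value in Long-Evans thus did not by itself set Scn4b apart from the panel. Over doses at 19 h the difference was -2.94 at 0.001 µg/kg, -1.57 at 0.1, 1.08 at 1, 1.91 at 10, 2.11 at 100 and 1.50 at 1000 µg/kg. Of 11 matched TCDD groups 9 were higher in Long-Evans as deposited, the 240 h group among them. Because the zero of each strain is its own 19 h vehicle group, a shift of either one would move all these differences equally.

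Across the 6 shared doses the strain difference had a Spearman's rho of 0.83 with log10 dose (two-sided exact permutation p = 0.0583, adjusted p = 0.318 by Benjamini-Hochberg over 48 targets). Pearson's r was 0.90 (exact permutation p = 0.00972, adjusted p = 0.124). Without the 2 doses farthest from the median, rho was 1.00 and r was 0.90 over 4 doses (exact permutation p = 0.0833 for each, the smallest that 4 values allow). None of the 48 targets passed by rho (0%), with 5 at an unadjusted exact permutation p under 0.05. Scn4b had 6 doses and the other targets 7, and the smallest exact permutation p its 6 doses allow by rho is 0.00278. Alone, that p does not pass adjustment over 48 targets, so by rho Scn4b could not have passed by itself. By Pearson's r 1 target passed, Lasp1 (r = -0.95, exact permutation adjusted p = 0.0381), and by rho with groups centred on their median 1 passed, Fmo1 (rho = -1, exact permutation adjusted p = 0.0190), both named after their values were seen. The trend of the strain difference with dose did not pass for Scn4b under any of these settings.

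Over time, the strain difference averaged 0.81 in the 6 TCDD groups and -0.90 in the 3 corn oil groups, a contrast of 1.71 (two-sided exact permutation p = 0.0238, adjusted p = 0.292 over 49 targets). It did not pass adjustment, and neither did any other target (0%), with 6 at an unadjusted exact permutation p under 0.05. The smallest p that the 84 splits into 6 and 3 allow is 0.0119. A target at that p could pass adjustment over 49 targets only if many others were also near it. That no target passed therefore says little about the strains. Of the 3 corn oil differences, that at 19 h was 0 by construction, and the test treated it like a measured value. The measured ones were 0.24 at 96 h and -2.94 at 240 h. The contrast rested on corn oil at 240 h, where Long-Evans was 2.94 log2 units below Han/Wistar, and without that time it was 0.69 (exact permutation p = 0.250, adjusted p = 0.750). A strain difference of Scn4b was thus not shown in either arm, which does not show that the strains respond alike.

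Across the TCDD groups the target most like Scn4b was Cyp1b1, with a Pearson's r of 0.98 over 13 groups in Long-Evans and 0.93 over 14 groups in Han/Wistar. The next were Exoc3, an exocyst subunit, and Nfe2l2, the oxidative stress regulator NRF2, in Long-Evans, with r of 0.97 and 0.96. In Han/Wistar they were Perp, a p53-responsive membrane protein, at 0.92 and Cyp2a1, a P450 enzyme, at 0.90. The median r over the 48 other targets was 0.71 in Long-Evans and 0.35 in Han/Wistar, and 15 of the 48 had an r below 0 in each strain. With each group centred on its median over targets, the median r was 0.11 for Long-Evans and 0.04 for Han/Wistar. The r of Cyp1a1 was 0.72 for Long-Evans and 0.51 for Han/Wistar. The lowest r was -0.91 for Inmt in Long-Evans and -0.85 for Nudt4, a diphosphoinositol polyphosphate phosphatase, in Han/Wistar.

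These correlations are descriptions with no p. The groups of a strain share their platform and their corn oil group at 19 h. Cyp1b1 stayed first in Long-Evans under every alternative tried, with values of 0.98 to 0.99. In Han/Wistar its rank was 1 to 3, and without the groups at 96 h and later r was 0.86 over 11 groups. The sizes of the values differed widely among these targets. At 100 µg/kg and 240 h in Long-Evans, Cyp1b1 stood at 12.28, Exoc3 at 3.20, Nfe2l2 at 2.87, Perp at 2.23 and Cyp2a1 at 3.61 in the authors' deposited table. In Han/Wistar at that time Cyp1b1 stood at 13.44, Perp at 1.57 and Cyp2a1 at 1.98 in the authors' deposited table.

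**Figure D4:**
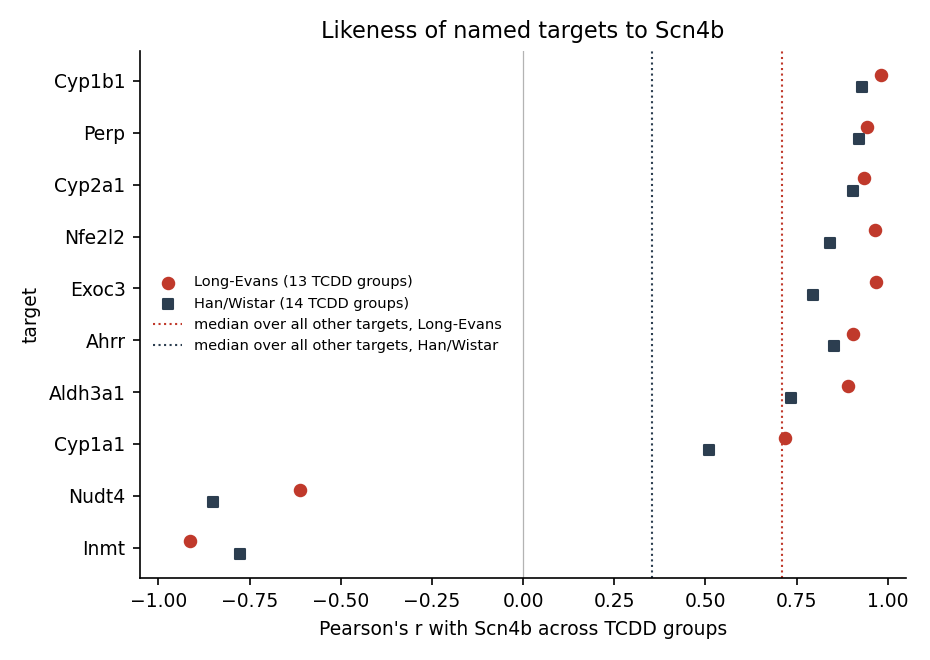
Pearson's r of the 10 other named targets with Scn4b across TCDD groups on the x axis, with 1 row per target. Circles stand for Long-Evans (13 groups), squares for Han/Wistar (14 groups), and dotted lines mark the median over the 48 other targets, 0.71 for Long-Evans and 0.35 for Han/Wistar. The highest r in both strains is that of Cyp1b1.

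Of 13 genes of the AHR battery, a list of known AHR-responsive genes, 12 were on the panel. The list was chosen with earlier results of these data known. Its counts and medians are therefore descriptions and support nothing by themselves. At 100 µg/kg and 19 h 9 of the 12 were at least 2-fold higher in each strain, 1 was at least 2-fold lower in Long-Evans and 2 in Han/Wistar. Over all 49 targets 18 were at least 2-fold higher and 4 lower in Long-Evans, and 15 higher and 3 lower in Han/Wistar. The median of the list was 3.29 log2 units in Long-Evans and 3.40 in Han/Wistar, against 0.59 and 0.23 over all targets. At 19 h 4 of the 12 stood above Scn4b in Long-Evans, and 3 did so in Han/Wistar. By 240 h there were 2 per strain, Cyp1b1 with Ahrr for Long-Evans and Cyp1b1 with Aldh3a1 for Han/Wistar.

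**Figure D5:**
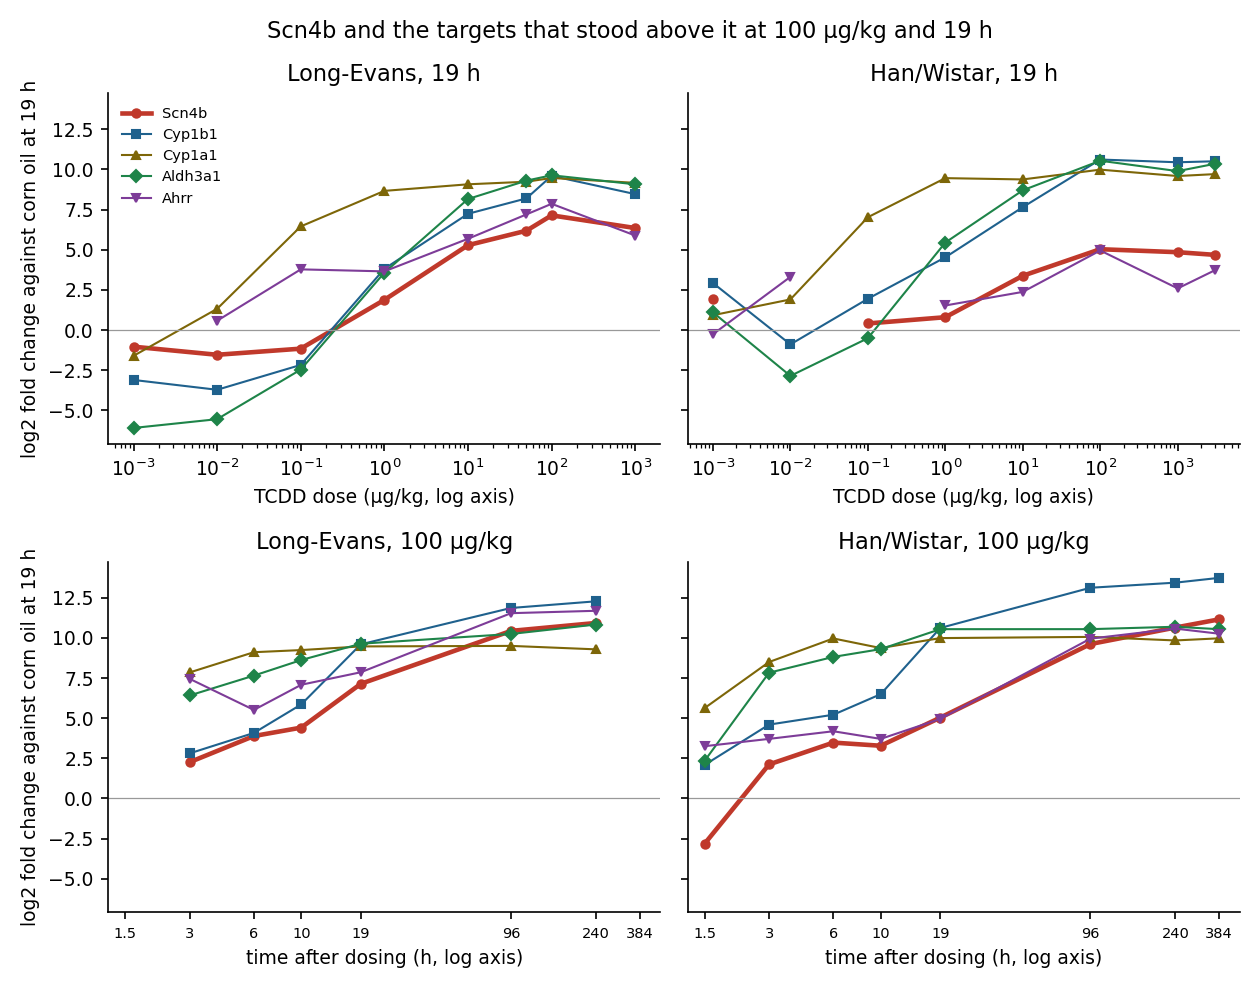
Scn4b (thick line) and the 4 targets that stood above it at 100 µg/kg and 19 h in at least 1 strain, with Long-Evans on the left and Han/Wistar on the right. The y axis is the deposited log2 fold change against corn oil at 19 h, the x axis is the TCDD dose in µg/kg at 19 h (upper row) or the time after 100 µg/kg in h (lower row), both on log scales, and each point is 1 group. By 1 µg/kg Cyp1a1 is at 8.66 (Long-Evans) and 9.46 (Han/Wistar), where Scn4b is at 1.88 and 0.80, and from 96 h onward Scn4b is at 9.62 or higher in both strains.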

How the data were processed

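Complementary DNA from liver RNA was measured on OpenArray PCR plates, per the labels' protocols. The authors deposited 1 value per target, strain, time and dose, taken as a log2 fold change with the strain's 19 h corn oil group as zero. For reference genes, failed wells and averaging, the authors' steps were not given in the sources used. R 2.12.2 was used, per the submitters' processing notes. Listed gaps were left missing (1759 of 1764 values listed). The 304 columns of cycle values per animal carry codes that match no sample label and were not used, so n per group comes from the labels, and depth is unknown.

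Groups were the units of the strain tests, which were two-sided exact permutation tests over all targets with at least 6 groups, Benjamini-Hochberg adjusted at 0.05. They were also run on simulated data with independent noise in every group, corn oil at 19 h included. Because that group is fixed at 0 in the real data, the simulated run does not show how the tests behave here. P-values measure the spread between groups. The planned settings were centring each group, other folds, other correlations and leaving out groups. Scn4b was named in every group, with the 3 targets of highest and the 1 of lowest Pearson's r per strain, and every target above it at 100 µg/kg and 19 h. Other targets were named where a count or rank needed them, after their values were seen. The gene and the lists were chosen with earlier results of these data known. None of the 5 other AHR signalling genes listed with Ahr was on the panel. Promoter windows are RefSeq's. Tests ran in scipy 1.17.1 (Python 3.11.15), tables in pandas 2.3.3 with numpy 2.4.6, and plots in matplotlib 3.10.9.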

Additional observations from a re-analysis of the deposited data

How the results depend on the processing

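The strain difference of Scn4b at 100 µg/kg and 240 h was 0.28 as deposited and reversed to -0.12 with groups centred on their mean over targets and -0.28 on their median, and the cause was not tested. No other result of Scn4b reversed under the alternatives run. With groups centred on their mean, TCDD minus corn oil of the same time moved from 11.45 to 9.97 at 240 h in Long-Evans. At 96 h in Han/Wistar it moved from 7.80 to 6.58, and both moves exceeded the SD over corn oil groups. With a 2-fold limit in place of the highest corn oil group, the lowest dose in Long-Evans was 1 µg/kg. With a 4-fold limit, 9 targets in Long-Evans and 8 in Han/Wistar were past it at 100 µg/kg and 19 h, and 9 in Han/Wistar at 240 h, which are fewer because the limit is higher. With each group centred on its mean over targets, the counts at least 2-fold higher were 9 at 19 h and 13 at 240 h for Long-Evans, and 8 at 19 h and 9 at 240 h for Han/Wistar, and the cause was not tested. Leaving out 1 group at a time, TCDD minus corn oil over time was 5.11 to 6.85 in Long-Evans and 3.32 to 5.31 in Han/Wistar, with 5.31 reached without TCDD at 1.5 h. The strain trend with dose was then 0.70 to 1.00, and the strain contrast over time 0.69 to 2.29. Over the alternatives the adjusted exact permutation p was 0.124 to 0.611 for the first and 0.219 to 0.750 for the second. The correlation settings without late groups, and without 1.5 h, were chosen after seeing the data. No paired analysis was possible for single animals because the deposited table has 1 value per group. Leaving out single animals was not run for the same reason. Groups of TCDD and corn oil could be paired by time at 19, 96 and 240 h. The test of the strain contrast over time did not use that pairing.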
